A study of Homo sapiens with 2 samples.

Results

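The genes described here encode the linker histone H1 and the core histones H2A, H2B, H3 and H4. They were taken by symbol from a platform annotation: every probe set annotated to exactly 1 gene of the H1, H2AC, H2BC, H3C or H4C series. This gave 57 probe sets of 49 genes, out of 19775 genes that had at least 1 probe set for themselves. They comprised 10 H1, 9 H2A, 14 H2B, 7 H3 and 9 H4 genes. By RefSeq annotation of GRCh38.p14, 42 of the 49 lie on chromosome 6 and 2 on chromosome 1, where these genes stand in clusters. The other 5 lie elsewhere: H1-7, H1-8, H1-9P, H1-10 and H2BC12L. H1-9P, H2AC5P and H4C10P are pseudogenes.

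The samples were 2 cultures of SW620, an established human colorectal cancer line, grown in RPMI medium. In one, SOX2, which encodes a transcription factor of stem and neural progenitor cells, was targeted by a hairpin RNA delivered with a lentivirus. The other received a lentiviral hairpin with no target and is called mock. Each gave total RNA for 1 Affymetrix expression array, so there was 1 array per group, no replicate and no test, and precision is limited by this number of arrays. The title of each sample ends in KO although the source name and protocol say knockdown, and a description field of both names a mouse liver experiment that the other labels do not match. The design text asks which genes SOX2 controls in colorectal cells.

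Every nucleosome wraps DNA around pairs of H2A, H2B, H3 and H4, and H1 binds the linker DNA between nucleosomes. Most of these genes exist in many near-identical copies that are transcribed in S phase, when new DNA has to be packaged. Their mRNA ends in a stem-loop instead of a poly(A) tail. A known subset, among them H2BC12, H2BC5, H2BC21 and H2AC6, also makes polyadenylated RNA, mainly in cells that leave the cell cycle. All of these examples are among the genes past 2-fold below, but they are not a full list of the subset. The subset was not compared as a whole, so nothing about it follows from these examples. The labelling kit named in the protocol is a 3′ in vitro transcription kit, a type that primes from poly(A) tails. The stem-loop form was not measured separately, and the values below cannot tell more transcription from more polyadenylated RNA. In bulk samples, a change in the share of cells that express a gene and a change in RNA per cell cannot be told apart.

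Values are the deposited intensity of a gene's brightest probe set, and differences are SOX2 knockdown minus mock on the log2 scale. The median of all values, an intensity of 68.5 or 6.10 on the log2 scale, served as floor for dim probe sets. A gene reached it when its mean over both arrays did, a rule that favours neither array. The array medians were 68.1 in SOX2 knockdown and 68.99 in mock. The knockdown itself could be seen in the brightest SOX2 probe set, which read 20.9 in SOX2 knockdown and 2077 in mock, at least 30.3-fold lower. A further SOX2 probe set read 120 in SOX2 knockdown and 333 in mock. The remaining SOX2 probe sets lay under the floor on both arrays and differed by -0.42 and -0.06 (log2). Of 10 colorectal epithelial markers 9 reached the floor, among them EPCAM at 9898 in SOX2 knockdown and 8910 in mock. The cadherin CDH1 differed by 0.91 (log2), the microvillus gene VIL1 by -1.25 and the galectin LGALS4 by at least 6.45. Of 12 measured markers of leukocytes, fibroblasts and endothelium 7 reached it, and the summed intensity of the 12 was 12654 in SOX2 knockdown and 1138 in mock. LYZ alone, a lysozyme of myeloid and Paneth cells, read 11691 in SOX2 knockdown and 213 in mock, and without it the sums were 964 in SOX2 knockdown and 925 in mock. CD14, a monocyte receptor, read 156 in SOX2 knockdown and 43.6 in mock. PTPRC, a marker of leukocytes, and CD3E, a marker of T cells, lay under the floor on both arrays. The part of other cell types in the histone values was not tested.

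Promoters of 4 of the 7 higher genes and of 1 H4 gene are shown first. Most H2A and H2B promoters hold an octamer and a CCAAT box, which most H4 promoters lack in these windows. Each is the RefSeq window of 250 bases before to 50 after a transcription start, in GRCh38.p14, read 5′ to 3′ on the gene's own strand. Capitals mark 3 motifs on either strand. They are the octamer ATTTGCAT (or ATGCAAAT), known from H2B promoters as a site of the POU factor POU2F1, the CCAAT box (or ATTGG), bound by NF-Y, and the TATA box as TATAAA (or TTTATA on the other strand). Matches to the last of these can overlap each other, as they do at the far end of the H2BC12 window. H2AC6 lies at chr6:26123922-26124221 on the plus strand. H2BC12 lies at chr6:27146809-27147108 on the minus strand and is the first of 2 such windows listed for it. H2BC21 lies at chr1:149886633-149886932 on the minus strand. H2BC5, at chr6:26157871-26158170 on the plus strand, is shown as a higher gene without the octamer. H4C5, at chr6:26204360-26204659 on the plus strand, is shown as a gene whose arrays differed little.
H2AC6: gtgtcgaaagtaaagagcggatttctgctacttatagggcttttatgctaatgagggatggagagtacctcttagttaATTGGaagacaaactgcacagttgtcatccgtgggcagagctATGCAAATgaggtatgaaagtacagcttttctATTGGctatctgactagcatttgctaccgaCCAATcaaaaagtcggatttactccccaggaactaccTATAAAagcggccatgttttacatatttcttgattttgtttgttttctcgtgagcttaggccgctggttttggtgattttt
H2BC12: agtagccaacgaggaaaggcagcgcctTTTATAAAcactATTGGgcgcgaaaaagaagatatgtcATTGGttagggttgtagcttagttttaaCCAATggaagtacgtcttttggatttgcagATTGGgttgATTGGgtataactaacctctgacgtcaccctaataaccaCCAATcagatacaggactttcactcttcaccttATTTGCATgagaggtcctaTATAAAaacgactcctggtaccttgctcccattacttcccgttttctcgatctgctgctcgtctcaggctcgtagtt
H2BC21: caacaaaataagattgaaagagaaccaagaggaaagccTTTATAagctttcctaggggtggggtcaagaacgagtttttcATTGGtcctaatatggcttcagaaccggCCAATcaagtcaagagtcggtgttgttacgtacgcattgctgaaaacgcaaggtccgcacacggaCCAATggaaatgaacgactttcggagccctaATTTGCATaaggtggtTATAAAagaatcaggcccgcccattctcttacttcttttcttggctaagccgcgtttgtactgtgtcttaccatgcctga
H2BC5: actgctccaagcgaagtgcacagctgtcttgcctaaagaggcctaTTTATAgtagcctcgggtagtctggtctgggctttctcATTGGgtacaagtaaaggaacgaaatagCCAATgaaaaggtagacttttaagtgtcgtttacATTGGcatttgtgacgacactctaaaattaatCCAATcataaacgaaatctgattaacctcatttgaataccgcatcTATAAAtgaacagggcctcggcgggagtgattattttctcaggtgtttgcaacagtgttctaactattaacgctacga
H4C5: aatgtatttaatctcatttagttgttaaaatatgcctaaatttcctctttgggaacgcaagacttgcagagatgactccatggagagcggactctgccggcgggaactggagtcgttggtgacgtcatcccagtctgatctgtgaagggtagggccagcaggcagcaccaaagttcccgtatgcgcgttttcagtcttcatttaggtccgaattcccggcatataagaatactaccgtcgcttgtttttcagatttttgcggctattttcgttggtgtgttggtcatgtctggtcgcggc

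H2AC6 held 1 octamer and 3 CCAAT boxes, H2BC12 held 1 and 6, and H2BC21 held 1 and 3. H2BC5 held 4 CCAAT boxes and no octamer, and H4C5 held none of the 3 motifs. In H2BC12 and in H2BC21 the octamer began 46 bases before the start, and in H2AC6 it began 130 bases before it. The TATA box nearest to the start began 31, 27, 30 and 28 bases before it in H2AC6, H2BC12, H2BC21 and H2BC5.

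In SOX2 knockdown 7 of the 49, or 14.3%, were higher by 2-fold or more, and 0 were lower by as much. All 7 were H2A or H2B genes: H2AC6, H2BC12, H2BC12L, H2BC21, H2BC6, H2BC5 and H2BC9. Of these, H2BC12 alone was read by a probe set without a mark for shared probes. Over all 19775 genes, 6.03% were higher and 5.21% lower by that limit. The mean reached the floor in 23 members, with the same 7 higher. Among the 13150 genes that reached it 8.16% were higher and 6.87% lower by that limit. Of the 7, H2BC21 reached it only through its SOX2 knockdown value. With both arrays at the floor 6 of 22 members were higher and 0 lower, beside 829 and 692 of 12412 genes. The median difference was 0.07 over all 49 members and 0.09 over the 23, beside -0.0048 and -0.0040 over all genes. The median over the 23 depended on which members were counted: it was 0.46 without the pseudogenes, 0.27 without H1-10 and 0.46 for the clusters on chromosomes 6 and 1 alone. With the 75th percentile of all values as floor it was 1.13 over 9 genes. Of the 49 members 40, or 81.6%, lay within 1.5-fold, beside 78.4% of all genes, and of the 23 at the floor 15, or 65.2%, beside 70.8%.

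**Figure D1:**
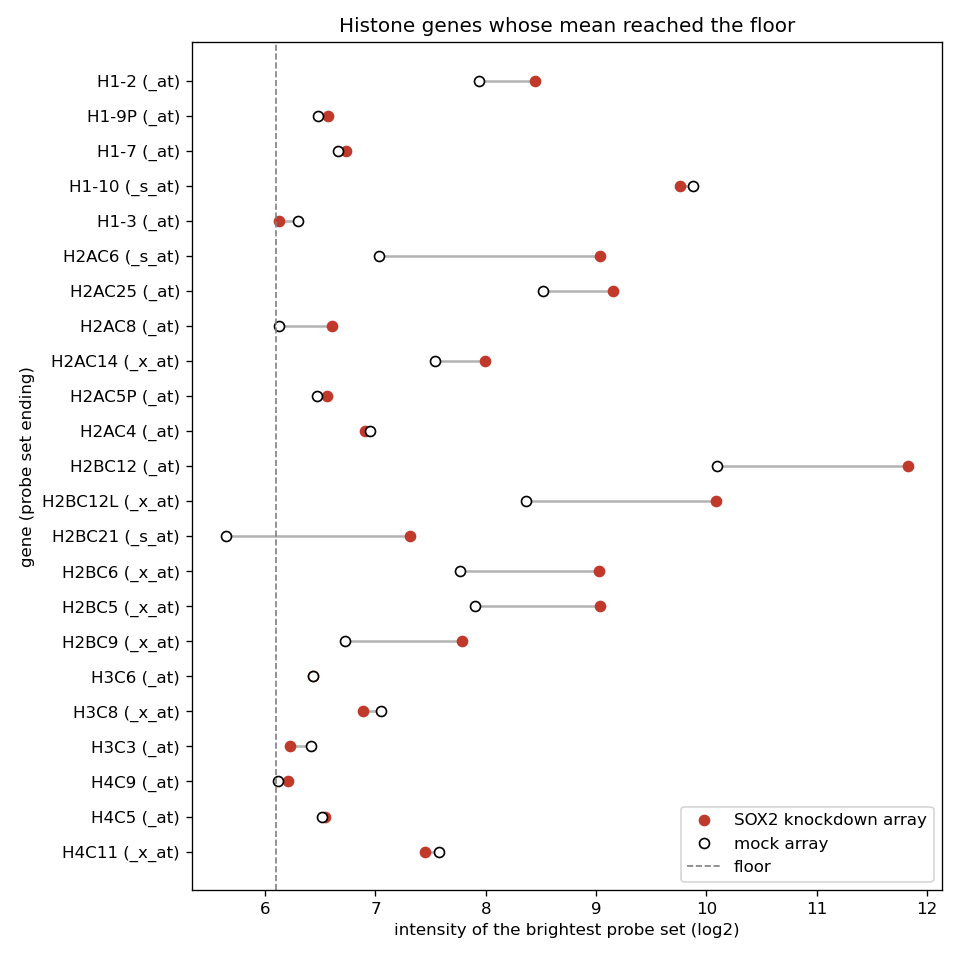
Intensity (log2) of the brightest probe set of each of the 23 histone genes whose mean reached the floor, with 1 point per array, SOX2 knockdown filled and mock open, and the floor dashed. The long bars belong to H2AC6 and to 6 H2B genes, and the mock value of H2BC21 lies left of the floor.

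H2B showed the most genes past 2-fold. Of 14 H2B genes 6 were at least 2-fold higher, and these 6 were the only H2B genes whose mean reached the floor. H2BC12, a cluster gene on chromosome 6, read 3637 in SOX2 knockdown and 1099 in mock, 3.31-fold higher. Its probe set, 209806_at, carries neither of the marks for probes shared with other transcripts. H2BC12L, a copy on chromosome 21 away from the clusters, read 1086 in SOX2 knockdown and 329 in mock, a log2 difference of 1.72. Its probe set ends in _x_at. H2BC21, the cluster gene on chromosome 1, read 159 in SOX2 knockdown and 49.98 in mock. Because its mock value was below the floor, it is given as a bound, at least 2.33-fold higher.

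H2BC6, H2BC5 and H2BC9 were, like H2BC12L, read by probe sets ending in _x_at. H2BC6 read 522 in SOX2 knockdown and 218 in mock, a log2 difference of 1.26. H2BC5 read 524 in SOX2 knockdown and 239 in mock, a difference of 1.13. Its second probe set, also ending in _x_at, differed by 1.09. H2BC9 read 221 in SOX2 knockdown and 105 in mock, a difference of 1.07, which was the closest of the 7 to the limit of 2-fold. The coding sequences of H2B copies are nearly identical, so the signal of such probe sets cannot be assigned to 1 copy with certainty.

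The remaining 8 H2B genes lay under the floor on both arrays and ranged from -0.14 to 0.66. The highest was H2BC4, at 55.6 in SOX2 knockdown and 35.1 in mock. The others were H2BC1, a testis histone, and H2BC3, H2BC11, H2BC13, H2BC14, H2BC15 and H2BC17. All 8 were read by probe sets without an ending for shared probes, and none of these stood clear of the dim range on either array. The lack of such an ending does not show that a probe set reads 1 copy alone. For example, 214455_at also lacks it and was annotated to 5 H2B genes.

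Among 9 H2A genes H2AC6 alone passed 2-fold. It read 526 in SOX2 knockdown and 131 in mock, 4.03-fold higher, the largest difference of the 49 genes. H2AC25, on chromosome 1, read 571 in SOX2 knockdown and 368 in mock, a log2 difference of 0.63. Its second probe set, which ends in _x_at, differed by only 0.16. H2AC8 read 97.1 in SOX2 knockdown and 70.01 in mock, a difference of 0.47, and H2AC14 read 256 in SOX2 knockdown and 186 in mock, a difference of 0.46. H2AC4 at -0.04 and the pseudogene H2AC5P at 0.09 were nearly equal between arrays. H2AC15, H2AC16 and H2AC17 lay under the floor on both arrays and ranged from -0.06 to 0.36. In all, 7 of 9 H2A genes lay above 0.

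No single H1, H3 or H4 gene passed 1.5-fold at its brightest probe set in either direction. The 26 genes of these families ranged from -0.49 to 0.51, with 10 above 0, 15 below and 1 at 0. Of the linker histones, H1-2 read 349 in SOX2 knockdown and 246 in mock, a log2 difference of 0.51 and the highest of the 26. H1-10, a linker histone made outside S phase as well, read 867 in SOX2 knockdown and 942 in mock, a difference of -0.12. H1-3 differed by -0.17, H1-7, a testis linker histone, by 0.07 and H1-9P by 0.09. The other probe sets of H1-7 differed by 0.09 and -0.08. H1-1, H1-4, H1-5, H1-6 and H1-8 lay under the floor on both arrays, between -0.16 and 0.14.

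H3 and H4 genes lay close to 0 where they reached the floor. H3C3 read 74.8 in SOX2 knockdown and 85.6 in mock, a log2 difference of -0.19. H3C8 read 119 in SOX2 knockdown and 132 in mock, a difference of -0.16, from a probe set ending in _x_at. H3C6 read 86.3 on both arrays, and its second probe set differed by 0.13. H4C11 differed by -0.12, H4C5 by 0.03 and H4C9 by 0.09. The accession of the H4C11 probe set belongs to H4C12 in the RefSeq table, so which of these near-identical copies it reads is uncertain. H4C1 read 60.8 in SOX2 knockdown and 72.5 in mock, close to the floor. The other H3 and H4 genes lay under the floor on both arrays, namely H3C1, H3C2, H3C7, H3C11, H4C4, H4C7, H4C8, H4C10P and H4C13. The lowest of them was H3C7 at -0.49.

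**Figure D2:**
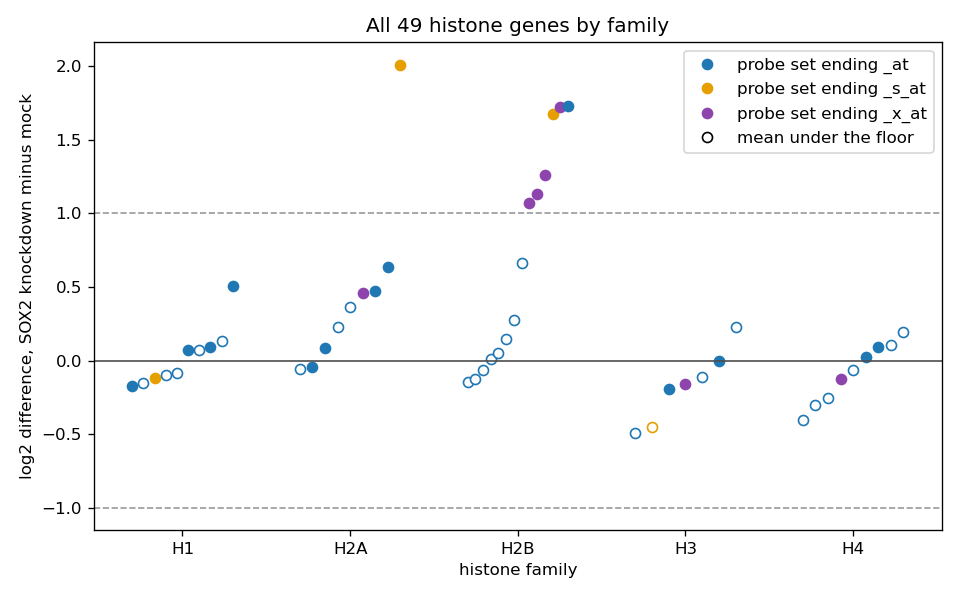
Log2 difference, SOX2 knockdown minus mock, of all 49 histone genes by family, 1 point per gene, coloured by the ending of its probe set and open where the mean lay under the floor. All points above the upper 2-fold line are in H2A and H2B, and no point lies below the lower one.

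How many genes passed 2-fold depended on the kind of probe set. On these arrays _s_at marks probes shared by several transcripts and _x_at marks probes that can also match other sequences. At the floor, 1 of 13 members read by a plain probe set was at least 2-fold higher, H2BC12, or 7.69%. Of 3 read by an _s_at probe set 2 were, H2AC6 and H2BC21, and of 7 read by an _x_at probe set 4 were. These 4 were H2B genes, while H2AC14, H3C8 and H4C11, also read by _x_at probe sets, lay within 1.5-fold. Under the floor, none of the 25 members read by a plain probe set and the 1 read by an _s_at probe set passed 2-fold. Among all genes at the floor the share at least 2-fold higher was 8.40% for plain probe sets, 8.44% for _s_at and 5.30% for _x_at. Without _x_at probe sets 3 members were left past 2-fold, and without _s_at as well only H2BC12. Shared hybridisation between copies as a source of the H2B differences was not tested.

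Probe sets annotated to several histone genes stand outside the 49 and were read separately. There were 20. As deposited 5 of them passed 2-fold upwards and 0 downwards. In 2 of the 5 the mock value lay below the floor and only bounds hold, at least 1.69-fold for 206110_at and at least 1.27-fold for 210387_at, which leaves 3. Among all 1801 probe sets with several symbols 72 passed 2-fold upwards. The brightest of the H2AC18 and H2AC19 probe sets, 214290_s_at, read 2168 in SOX2 knockdown and 577 in mock, a log2 difference of 1.91. The others for this pair of genes differed by 1.58 and, just under the floor, by 0.27. Of 5 probe sets for groups of H2B genes 2 reached the floor, both ending in _x_at, and differed by 0.74 and 1.36. For H4 none of 6 passed 2-fold. The brightest of these, 205967_at, was annotated to 14 H4 genes and read 11815 in SOX2 knockdown and 12944 in mock, a difference of -0.13. An H3 probe set annotated to 10 genes, 206110_at, read 116 in SOX2 knockdown and 47.0 in mock, at least 1.69-fold higher against the floor, while a further H3 probe set, dim on both arrays, differed by 0.04.

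Along chromosome 6 genes near 0 lay between higher ones, but H2BC5 and H2BC6, both higher, were neighbours among the measured genes. The cluster falls into 3 groups of genes. In the first, from H2AC1 to H3C9P, 26 histone genes were measured and 4 were at least 2-fold higher: H2AC6, H2BC5, H2BC6 and H2BC9. H1-4, between H2AC6 and H2BC5, lay under the floor at -0.08, and among the genes between H2BC6 and H2BC9, H4C5, H3C6 and H1-3 lay between -0.17 and 0.03 and H2AC8 at 0.47. In the second group H2BC12 stood at 1.73, between H2BC11 at 0.05, under the floor, and H4C9 at 0.09. In the last group, from H4C10P to H2BC17, none of 13 measured genes passed 2-fold, but only H2AC14 at 0.46 and H4C11 at -0.12 reached the floor there, against 13 of 26 genes in the first group. Among the genes within these groups that are not in the histone series, TRIM38, a ubiquitin ligase, differed by 0.32 and HFE, a regulator of iron uptake, by 0.01. These were the only ones that reached the floor.

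**Figure D3:**
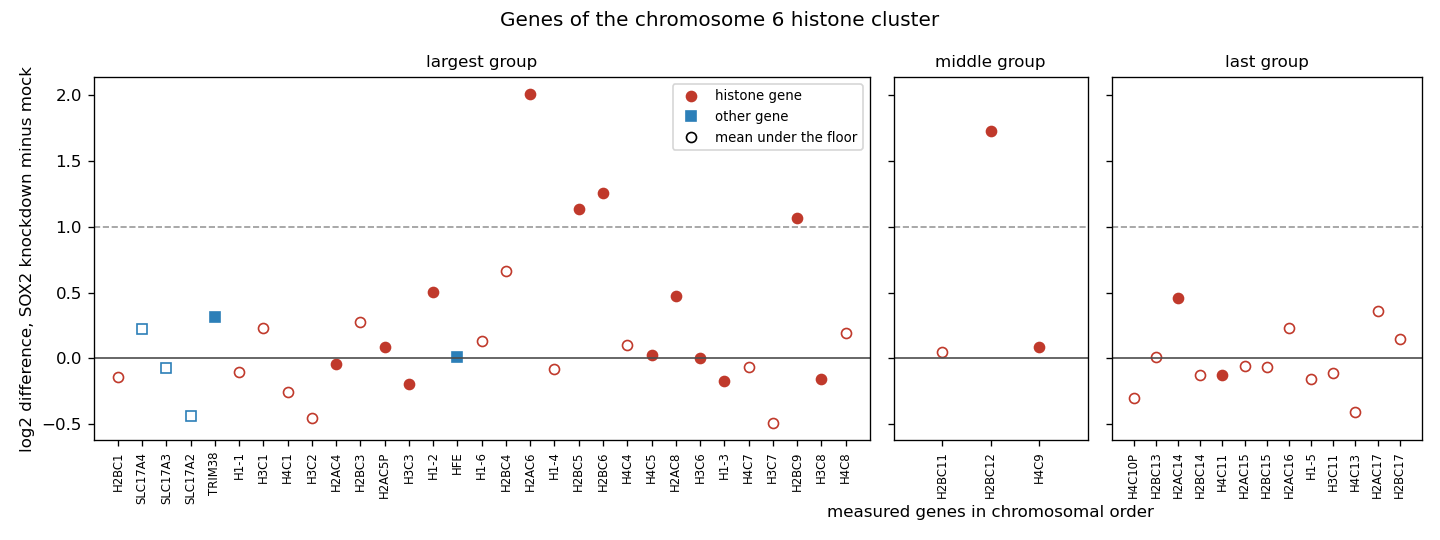
Log2 difference of the measured genes of the chromosome 6 cluster in chromosomal order, in 3 panels for its 3 groups of genes, with histone genes as circles and other genes as squares, open where the mean lay under the floor. Genes near 0, some of them under the floor, lie between genes above the 2-fold line, but H2BC5 and H2BC6 are neighbours among the measured genes.

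Many H2A and H2B genes stand head to head. In 11 such pairs the promoter windows overlapped, by 253 to 293 bases. Both genes of a pair were measured in 4, and in none did both reach the floor. H2AC6, at 2.01, shares 255 bases of its window with H2BC4, which differed by 0.66 with both values under the floor. H2AC14 at 0.46 and H2BC14 at -0.12, H2AC17 at 0.36 and H2BC17 at 0.15, and H2AC15 at -0.06 and H2BC15 at -0.06 were the others. H2BC21 shares 265 bases with H2AC20, which has no probe set of its own here.

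The octamer shown above was common in H2A and H2B promoters, among the higher genes and among those that differed by less than 2-fold. It was found in 1.77% of all 35116 RefSeq windows. Among histone genes with a window it was found in 14 of 18 H2B genes, 11 of 16 H2A genes, 1 of 11 H3 genes, 0 of 13 H4 genes and 0 of 9 H1 genes. Of the 7 higher genes 6 had a window, and 5 of these held the octamer, H2BC5 being the exception. Of 15 H2A and H2B members with a window that differed by less than 2-fold 11 held it. Windows of head-to-head pairs overlap, so the same octamer can be counted for both genes of a pair. CCAAT boxes were found in all 18 H2B, 16 H2A and 11 H3 genes, in 8 of 9 H1 genes and in 3 of 13 H4 genes, beside 34.6% of all windows. TATAAA was found in 44 of 67 histone genes, among them 7 of 13 H4 genes, and in 11.5% of all windows. A match to these letters is a description and not a bound site.

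RefSeq lists more than 1 curated mRNA for 5 members. H2BC12 and H2BC5 were among the genes past 2-fold, H2BC4 differed by 0.66 under the floor, and H3C6 and H1-8 differed by 0.00 and 0.08. Of the 41 members with 1 curated mRNA 5, or 12.2%, were at least 2-fold higher, beside 6.03% of all 19775 genes. The pseudogenes had no curated mRNA. Whether the number of mRNAs goes with the differences was not tested.

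Histone genes listed as replication-independent were mixed. Of 8 such genes at the floor 1 passed 2-fold upwards and 1 downwards, and the median was 0.15. Each share was 12.5%, beside 8.16% and 6.87% of all genes at the floor. H2AJ, an H2A variant known from senescent cells, read 1982 in SOX2 knockdown and 762 in mock, a log2 difference of 1.38 from an _x_at probe set, and its 4 probe sets ranged from 0.55 to 1.38. MACROH2A2, a large variant of silent chromatin, read 106 in SOX2 knockdown and 325 in mock, a difference of -1.62. CENPA, the H3 variant of centromeres, differed by -0.66. H2AZ1 and H2AX differed by 0.20 and 0.38.

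In the list of histone transcription and 3′ end processing, 0 of 20 genes at the floor passed 2-fold in either direction. Of all genes at the floor 8.16% were higher and 6.87% lower by that limit. The median of the list was -0.07. LSM11, of the U7 snRNP that cleaves histone pre-mRNA, differed by 0.73, with probe sets from 0.11 upwards, and its partner ZNF473 by 0.66, with a second at 0.26, against -0.88 for the cleavage subunit CPSF2, whose 3 probe sets reached up to -0.28. Of 12 genes of histone mRNA decay 1 was higher and 1 lower, each 8.33% and near the 8.16% and 6.87% of all genes at the floor. ERI1, the exonuclease that trims the histone stem-loop, read 201 in SOX2 knockdown and 487 in mock, a difference of -1.28, and its other probe set differed by -2.05. The decapping enzyme DCP2 differed by 1.13, with probe sets from 0.08 to 1.17, and LSM1 by -0.93. Among enzymes of the poly(A) tail, PAN3 differed by 1.33 and the deadenylase CNOT7 by -1.02, with probe sets of CNOT7 from -1.97 to -0.15.

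Most chaperone genes lay slightly below 0, and replication genes were mixed. Of 22 histone chaperone genes 17 lay below 0, beside 6609 of all 13150 genes at the floor, and the median was -0.19. By 2-fold 1 was lower, or 4.55%, and 0 were higher, beside 6.87% and 8.16% of all genes at the floor. ASF1A, a chaperone of H3 and H4, differed by -1.10 and ATRX by -0.73, against 0.80 for UBN1. The probe sets of ATRX ranged from -0.81 to -0.13, and the other ones of ASF1A and UBN1 differed by -1.58 and 0.40. Of 38 genes of S phase and replication 2 passed 2-fold upwards and 3 downwards, and the median was -0.06. These shares, 5.26% and 7.89%, were near the 8.16% and 6.87% of all genes at the floor. The E cyclins CCNE1 and CCNE2, which act on the histone gene activator NPAT through CDK2, differed by 1.87 and 1.33. NPAT itself differed by -0.19, with probe sets up to 0.17, and CDK2 by -0.49. A link of these genes to the histone values was not tested. The other probe set of CCNE1 differed by 0.32. POLA1 and PRIM1, subunits of the polymerase that primes replication, differed by -1.88 and -1.51.

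**Figure D4:**
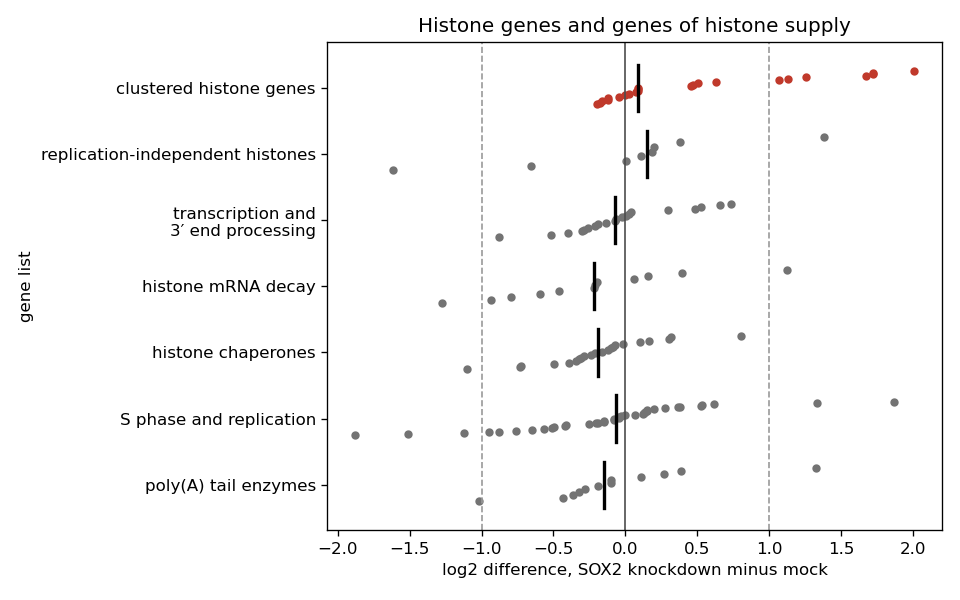
Log2 difference of the 23 clustered histone genes at the floor and of 6 lists of related genes at the floor, 1 point per gene, with the median as a bar and 2-fold as dashed lines. Of the histone genes 7 lie right of the upper 2-fold line. Every list except the replication-independent histones has a median left of 0, from -0.22 to -0.06.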

How the data were processed

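The authors deposited 1 intensity per probe set and array. Per the submitters' processing notes RMA produced it; no source used here states the version, the settings or how values came to be linear rather than log2, which their range, up to 23253, shows. RMA evens out array distributions and so hides any change in total RNA.

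Log2 was taken with no pseudocount. Of 54675 probe sets 62 were controls; of the others 41091 had 1 symbol in the platform annotation and were used, 1801 had several and 11721 none. The probe set with the highest mean stood for a gene, and 13150 genes reached the floor. With 1 array per group, genes were counted past 2-fold and no test was run. A named difference of 1.5-fold or more with its dimmer value under the floor is a bound. Probe sets of 1 gene differed with an SD of 0.45, which holds no variation between cultures. Named were all members at the floor, and up to 2 genes per list and direction of at least 1.5-fold. TRIM38, HFE, H1-10-AS1 and the probe sets of several genes were named after their values were seen, as were the further genes of the lists. The members, lists and limits were chosen with earlier results of these data known. The antisense RNA H1-10-AS1 was left out. Counting was tested on simulated data. Alternatives covered floors, scaling, pseudocount, probe set choice, size limits and members. Python 3.11.15, numpy 2.4.6, pandas 2.3.3 and matplotlib 3.10.9 were used.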

Additional observations from a re-analysis of the deposited data

How the results depend on the processing

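The 7 histone genes past 2-fold were counted again under other settings. The count was 1 without _x_at, _s_at and _a_at probe sets, 3 without _x_at probe sets and 4 with a limit of 3-fold; otherwise it lay between 5 and 8. The count of lower genes was 0 in every setting run. With the 75th percentile as floor only 9 genes entered and the median of 0.09 became 1.13; it was 0.46 without pseudogenes and for the clusters alone, 0.27 without H1-10, 0.24 with the mean of probe sets and otherwise between 0.07 and 0.13, and the mean was 0.53. Limiting the members to the clusters on chromosomes 6 and 1, chosen after seeing the data, left 6 genes past 2-fold. No difference of a named gene past 2-fold changed sign, and H2BC9 fell to 0.88 with a pseudocount of 32. Over all genes the counts ran from 528 to 1951 higher and from 407 to 1884 lower, beside 1073 and 903. Causes were not tested. No paired analysis was possible because each group held 1 array. With no replicates and intensities near the floor, small differences of dim copies cannot be resolved.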

Other observations

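H1-10-AS1, the antisense RNA beside the linker histone gene H1-10, read 37.8 in SOX2 knockdown and 32.6 in mock, under the floor on both arrays. Of the H4 probe sets annotated to 14 genes, 207046_at differed by 0.42 and 214516_at by -0.36, so probe sets with 1 and the same annotation went in opposite directions.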
